A study of Mus musculus with 14 samples.

Results

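Genes that make and use glutathione, with other target genes of the transcription factor Nrf2, were examined in bulk RNA of mouse liver tumours. The members were 35 listed symbols among the 29923 of the deposited expression table: 21 glutathione transferases, 5 genes of glutathione supply, 7 peroxide and redox enzymes, and Nrf2 and its inhibitor Keap1. They were listed by function, by a choice made with earlier results of these data known, so their shares set beside all genes are a description. Of them 34 passed the filter on low values (1 TPM, a length-corrected share of all transcripts, in at least 3 tumours); Slc7a11 did not. All 34 reached that level in at least 3 vector tumours as well, so none passed only through the tumours with Aoah. Tumours were raised in C57BL/6 mice by hydrodynamic injection of plasmids into the tail vein, a procedure that drives DNA into hepatocytes, together with a plasmid for the SB100 transposase. By the plasmids listed, every tumour was raised with a MYC and luciferase plasmid driven by the EF1a promoter, in its plain form (MYC-Luc, here Luc) or with the OVA, SIN and SIY antigens (MYC-LucOS, here LucOS). The groups were 3 LucOS tumours with the PKT2/CLP-Aoah plasmid (LucOS Aoah), 3 LucOS tumours with the empty PKT2/CLP vector (LucOS vector), 4 Luc tumours with PKT2/CLP-Aoah (Luc Aoah) and 4 Luc tumours with the empty vector (Luc vector). A plasmid for truncated beta-catenin, pT3-N90-CTNNB1, is also listed for the series, without the tumours that received it. An anti-PD1 protocol is given as well, without a statement that these 14 received it. Ages of the mice and the PKT2/CLP promoter are not given in the sources used here. Aoah encodes acyloxyacyl hydrolase, an enzyme that inactivates bacterial lipopolysaccharide by taking off its secondary fatty acids. The labels do not say that the tumours came from separate animals, so the p-values measure the spread between these samples only.

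Glutathione is a tripeptide whose thiol reduces peroxides and is joined by glutathione transferases to electrophiles, and hepatocytes are among the richest sources of both. Nrf2, encoded by Nfe2l2, is normally held by Keap1, which presents it to a Cul3 ubiquitin ligase for degradation. When oxidants or electrophiles modify Keap1, Nrf2 accumulates, pairs with small Maf proteins and binds antioxidant response elements, whose core is written TGACNNNGC, in front of genes such as Nqo1, Gclc, Gclm and many transferases.

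The element core was searched on both strands (TGACNNNGC, or GCNNNGTCA on the other strand) in RefSeq promoter windows of build GRCm38.p6, which run from 250 bases before to 50 bases after a start site. Windows were held for 30 of the 35 genes, 43 windows in all; Gsta4, Gstt2, Gclc, Gsr and Hmox1 had none. A match was found in 18.6% of these windows and in 12.4% of all 32851 windows of that length. The 8 genes with a match were Gsta3, Gstm5, Gstm7, Mgst1, Gclm, Srxn1, Txnrd1 and Nfe2l2. The 250 bases before the start site are shown for 3 genes whose values are described further on: Gclm, the modifier subunit of the first enzyme of glutathione synthesis, Gsta3, an abundant transferase, and Nqo1, the quinone reductase often read as an Nrf2 target. Gclm lies on the plus strand (chr3:122245307-122245556) with a match 134 to 126 bases before the start. Gsta3 lies on the plus strand (chr1:21240335-21240584) with a match 121 to 113 bases before the start. Nqo1 lies on the minus strand (chr8:107403206-107403455), and the letters searched for are not in its window. Sequences run 5′ to 3′ along the gene's strand, and capitals mark the match.
Gclm: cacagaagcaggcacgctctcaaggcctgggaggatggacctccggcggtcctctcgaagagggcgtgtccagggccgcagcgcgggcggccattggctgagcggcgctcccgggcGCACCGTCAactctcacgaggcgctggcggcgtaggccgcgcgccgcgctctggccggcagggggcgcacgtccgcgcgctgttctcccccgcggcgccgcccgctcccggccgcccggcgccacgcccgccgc
Gsta3: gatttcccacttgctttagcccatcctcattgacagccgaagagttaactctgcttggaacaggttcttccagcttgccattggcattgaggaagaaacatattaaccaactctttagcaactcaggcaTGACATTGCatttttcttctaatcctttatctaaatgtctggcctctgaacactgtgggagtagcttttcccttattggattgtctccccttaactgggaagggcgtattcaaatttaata
Nqo1: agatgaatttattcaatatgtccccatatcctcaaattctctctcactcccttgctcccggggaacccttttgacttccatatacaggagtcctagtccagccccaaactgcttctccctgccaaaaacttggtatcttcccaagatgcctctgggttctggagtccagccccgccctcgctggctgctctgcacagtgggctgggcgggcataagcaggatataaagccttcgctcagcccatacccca

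The delivered gene was checked first. Aoah stood at 576, 589 and 931 TPM in LucOS Aoah tumours, against 1.28, 1.59 and 3.43 TPM in LucOS vector tumours. In the other model it stood at 504, 685, 284 and 519 TPM in Luc Aoah tumours, against 18.6, 0.740, 54.8 and 0.890 TPM in Luc vector tumours, so Luc vector 1 and 3 held more than the other vector tumours. Depth is unknown because the values are TPM, and 11478 to 12836 genes reached 1 TPM per tumour. Mitochondrially encoded genes took 16.6% of TPM in LucOS Aoah 3 and 3.41% to 8.45% in the other 13 tumours. Small noncoding RNA classes of GENCODE M21 took 9.28% in Luc Aoah 3 and 1.06% to 2.37% in the others. All 6 hepatocyte markers listed (Alb, Apoa1, Ttr, Tat, Cps1, Hnf4a) were detected in every tumour. In LucOS their summed TPM ran from 6003 to 14664 with Aoah and from 2385 to 5488 with vector, and 1 of 6 was called higher. In Luc the sum ran from 4952 to 19079 with Aoah and from 4037 to 5828 with vector, and 2 of 6 were called higher. Alb alone averaged 7185 ± 4505 TPM in Luc Aoah tumours (SD, n = 4). Single markers had log2 changes of both signs in Luc: 1.41 (adjusted p = 0.0357) for Alb and 1.40 (adjusted p = 0.00881) for Ttr, but -0.77 (adjusted p = 0.0609) for Cps1 and -1.19 (adjusted p = 0.0584) for Hnf4a. T cell markers summed to 23.0 to 79.5 TPM in LucOS Aoah tumours, 6.26 to 17.6 TPM in LucOS vector, 19.0 to 35.1 TPM in the Luc Aoah group, then 1.95 to 8.14 TPM in Luc vector tumours, with 1 of 5 called higher in LucOS and 3 of 5 in Luc. Neutrophil markers summed to 118 to 433 TPM in LucOS Aoah tumours, 386 to 883 TPM in LucOS vector, 48.7 to 97.3 TPM in the Luc Aoah group, then 121 to 377 TPM in Luc vector tumours; 4 of the 4 tested were called lower in Luc and none in LucOS. None of the 5 macrophage, 5 Kupffer cell, 4 stellate cell, 5 endothelial, 3 cholangiocyte and 3 B and plasma cell markers tested was called in LucOS; in Luc 1, 2, 3, 2, 0 and 3 of them in that order were higher, and the cholangiocyte marker Sox9 was lower. Beside these counts, 0.750% of all genes were called higher and 0.215% lower in LucOS. In Luc 7.93% of all genes were called higher and 14.3% lower. No T cell or neutrophil marker was called when the LucOS change minus the Luc change was tested, so the models are not shown to differ there. Of the markers, Cd79a, Ms4a1, Mzb1 and Ly6g were at 0 in at least 1 tumour. The part of these differences in the values that follow was not tested, and in bulk tissue fewer cells of a type and less RNA per cell cannot be told apart.

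Antioxidant genes were compared between Aoah and vector tumours of each model. In LucOS tumours 5 of the 34 genes rose with Aoah and none fell: the transferases Gsta1, Gsta2, Gstt1 and Mgst3, and Nqo1. That is 14.7% of them, against 0.750% of all 13466 genes tested called higher and 0.215% called lower (limma, adjusted p under 0.05). In Luc tumours 14 of the 34 rose and none fell, or 41.2%, against 7.93% of all genes called higher and 14.3% called lower. The Luc calls were 11 transferases (Gsta1, Gsta2, Gsta3, Gstm4, Gstm6, Gstt1, Gstt2, Gstz1, Mgst1, Mgst2 and Mgst3), the peroxidases Gpx1 and Gpx4, and Nqo1. The 5 LucOS calls were all among them. At an unadjusted p under 0.05, both directions together, the count was 21 in LucOS (61.8%, against 12.3% of all genes) and 17 in Luc (50%, against 41.8% of all genes).

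The median log2 change over the 34 genes was 0.90 in LucOS, where that of all genes was -0.02, and 0.80 in Luc, where that of all genes was -0.24. Of 21 transferases 4 rose in LucOS (median 1.17) and 11 in Luc (median 1.35). Of the other 13 genes 1 rose in LucOS (median 0.58) and 3 in Luc (median 0.19). Every LucOS Aoah tumour lay above every LucOS vector tumour for 10 of the 34 genes, or 29.4%, against 6.22% of all genes, and below for none, against 6.07%. In Luc this held for 16 of the 34, or 47.1%, against 11.8% of all genes, and every Aoah tumour lay below every vector tumour for 1 (Gstm5), against 9.10%. Scaling the tumours to the same median moved the median of all genes in Luc to 0.07. It left the transferase medians at 1.15 in LucOS and 1.66 in Luc, and put those of the other 13 genes at 0.55 and 0.51. The calls, all higher, rose to 8 in LucOS (23.5%, against 1.19% of all genes higher). In Luc they rose to 22 (64.7%, against 15.9% of all genes higher). These were 6 transferases and 2 other genes in LucOS, and 14 transferases and 8 of the other 13 genes in Luc. How far Luc calls favoured transferases thus depended on the scaling.

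The LucOS count rested on few tumours. Without LucOS Aoah 3, the tumour with the high mitochondrial share, or without LucOS vector 3, Gsta1 alone remained called, and without LucOS Aoah 1 Gsta1 and Nqo1 remained. Without LucOS vector 2 there were 13 calls. The fit shares its spread between models, and without Luc Aoah 1 there were 3 calls in LucOS. With no filter on low values, or in a fit on LucOS tumours alone, none of the 5 was called. Calls over all genes moved in the same way, from 130 in the main LucOS comparison. They were 14 without LucOS Aoah 3, 23 without LucOS vector 3, 13 without LucOS Aoah 1 and 353 without LucOS vector 2. Without Luc Aoah 1 they were 52, with no filter 15 and in the fit on LucOS tumours alone 6. The shifts in count are thus not particular to these genes. In Luc, leaving out any 1 tumour gave 12 to 16 calls, while those over all genes ran from 855 to 5251. Without Luc vector 1 and 3 together, the tumours with raised Aoah, 7 of the 14 remained: Gsta1, Gsta3, Mgst1, Mgst3, Gpx1, Gpx4 and Nqo1. These 7 were called under all 23 alternatives tried, and none of the 5 LucOS calls was. Without Luc vector 1 and 3 together, 265 of 13243 genes were called higher, against 1068 of 13466 in the main fit. The Luc calls lost there had log2 changes of 0.56 (Gstz1) to 2.54 (Gsta2), against 0.71 and 2.74 in the main fit.

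**Figure D1:**
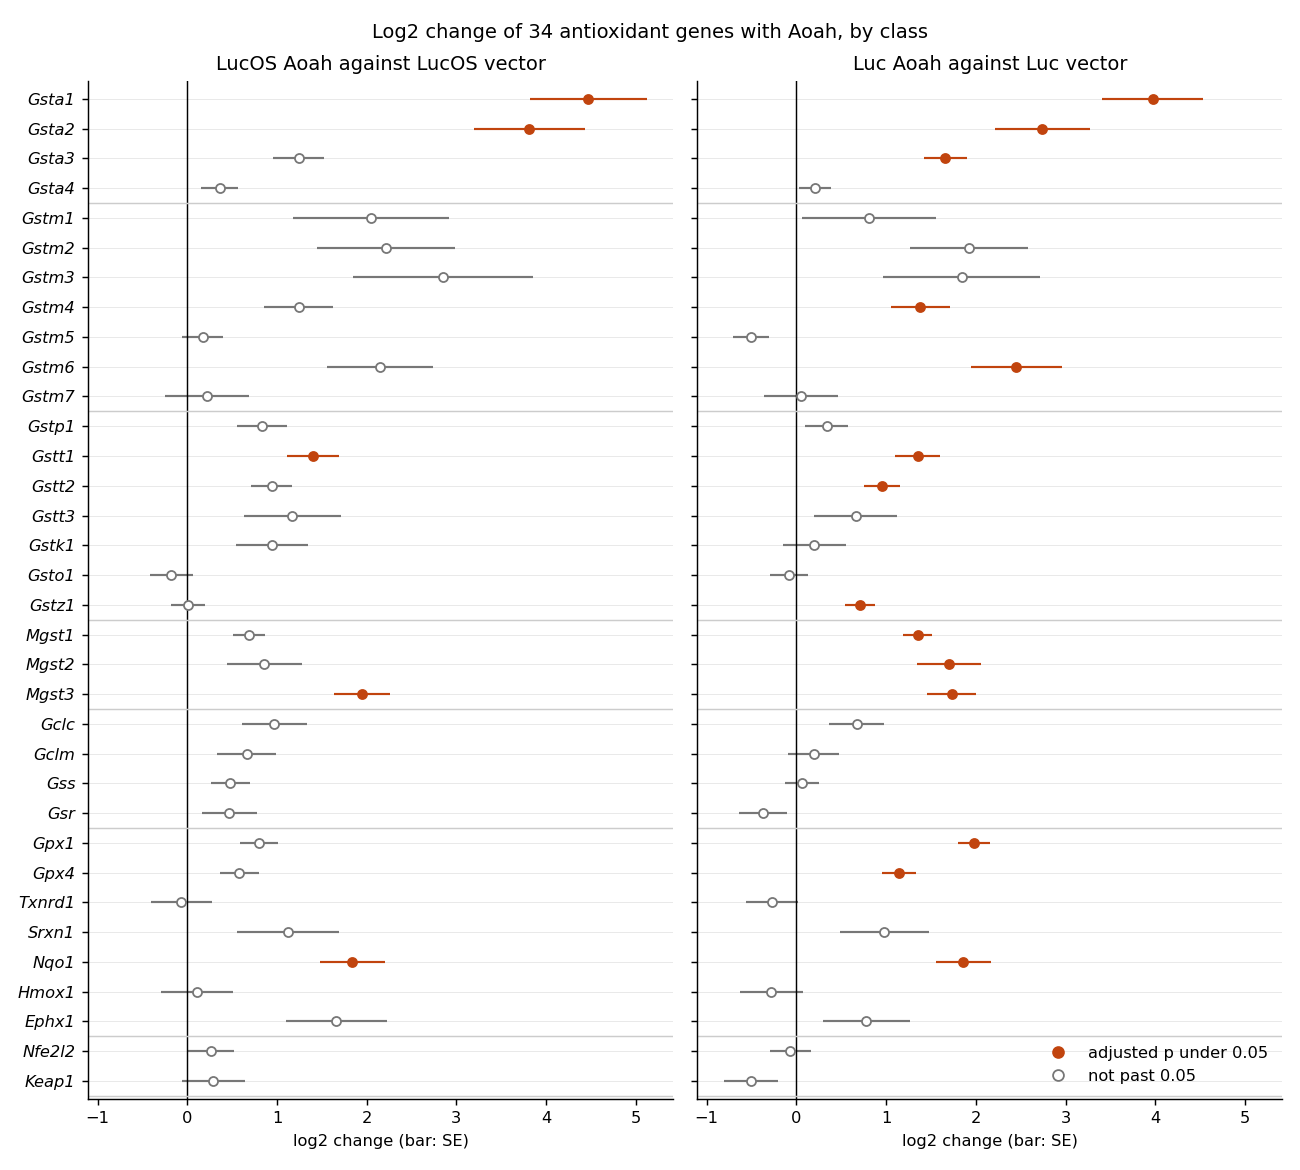
Log2 change of log2(TPM + 1) with Aoah for 34 genes (points, with SE as bars) in LucOS tumours (left, 3 against 3) and Luc tumours (right, 4 against 4), grouped by class; filled points passed an adjusted p of 0.05. The 5 filled points of LucOS are also filled in Luc, where 14 are, and no filled point lies left of 0.

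Alpha class transferases, cytosolic enzymes that conjugate electrophiles and reduce lipid hydroperoxides, held the largest changes of any class here. In LucOS 2 of 4 rose, against 0.750% of all genes, and in Luc 3 of 4, against 7.93%. Gsta1 stood at 26.8, 32.2 and 165 TPM in LucOS Aoah tumours, against 0.970, 4.52 and 0.300 TPM in LucOS vector tumours. Its Luc values were 33.4, 28.1, 22.8 and 57.9 TPM with Aoah, against 0.480, 0.470, 2.00 and 2.59 TPM with vector. The lowest Aoah tumour held several times the TPM of the highest vector tumour, so the groups did not overlap in either model. Its log2 change was 4.47 (SE 0.65, adjusted p = 0.00852) in LucOS and 3.97 (SE 0.56, adjusted p = 0.000537) in Luc. These changes on log2(TPM + 1) understate the fold of a gene so low in vector tumours. The neighbouring gene Gsta2 stood at 45.2, 33.5 and 107 TPM in LucOS Aoah tumours, against 1.11, 11.6 and 1.38 TPM in LucOS vector tumours. The Luc tumours had 53.5, 55.5, 34.2 and 108 TPM with Aoah, against 4.47, 7.17, 9.62 and 11.5 TPM with vector. LucOS Aoah 3 and Luc Aoah 4 were the highest, and the groups did not overlap. Gsta2 had a log2 change of 3.81 (SE 0.62, adjusted p = 0.015) in LucOS and 2.74 (SE 0.53, adjusted p = 0.00433) in Luc. The Luc call was lost without Luc vector 1 and 3 together (adjusted p = 0.0722, range 0.000413 to 0.0722), and the LucOS call without LucOS Aoah 1, Aoah 3 or vector 3 (adjusted p = 0.0532, 0.079 and 0.0681, range 0.000458 to 0.205). Fitting each model alone also ended the LucOS call of Gsta1 (adjusted p = 0.171, range 0.00128 to 0.171).

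Both genes share sequence with relatives, which bears on how reads were divided. In GENCODE M21, on build GRCm38, Gsta1 (chr9:78230656-78242684) and Gsta2 (chr9:78331018-78355788) lie close together, and 86.3% of the 75-base windows of the longest coding Gsta1 transcript and 46.9% of those of Gsta2 also occur in another gene, most often the predicted genes Gm3776 and Gm10639. The split of reads between these copies is therefore uncertain. Gsta3, on chromosome 1, shared no such window. It stood at 1167, 852 and 1085 TPM in LucOS Aoah tumours, against 342, 752 and 318 TPM in LucOS vector tumours, and the groups did not overlap. Its LucOS change of 1.24 (SE 0.28, adjusted p = 0.052) did not pass. It passed without LucOS Aoah 2 (adjusted p = 0.0433) or LucOS vector 2 (adjusted p = 0.00146), within 0.00146 to 0.339 over the alternatives. Values in Luc were 1386, 1239, 1065 and 1631 TPM with Aoah, against 384, 412, 436 and 431 TPM with vector, with the vector tumours close together and every Aoah tumour far above them. The Luc change was 1.66 (SE 0.24, adjusted p = 0.000661). Gsta4, which acts on the lipid peroxidation product 4-hydroxynonenal, ranged from 148 to 165 TPM in LucOS Aoah, 106 to 135 TPM in LucOS vector, 112 to 205 TPM in the Luc Aoah group, then 131 to 155 TPM in Luc vector tumours. Its changes of 0.36 (adjusted p = 0.541) in LucOS and 0.21 (adjusted p = 0.391) in Luc did not pass.

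**Figure D2:**
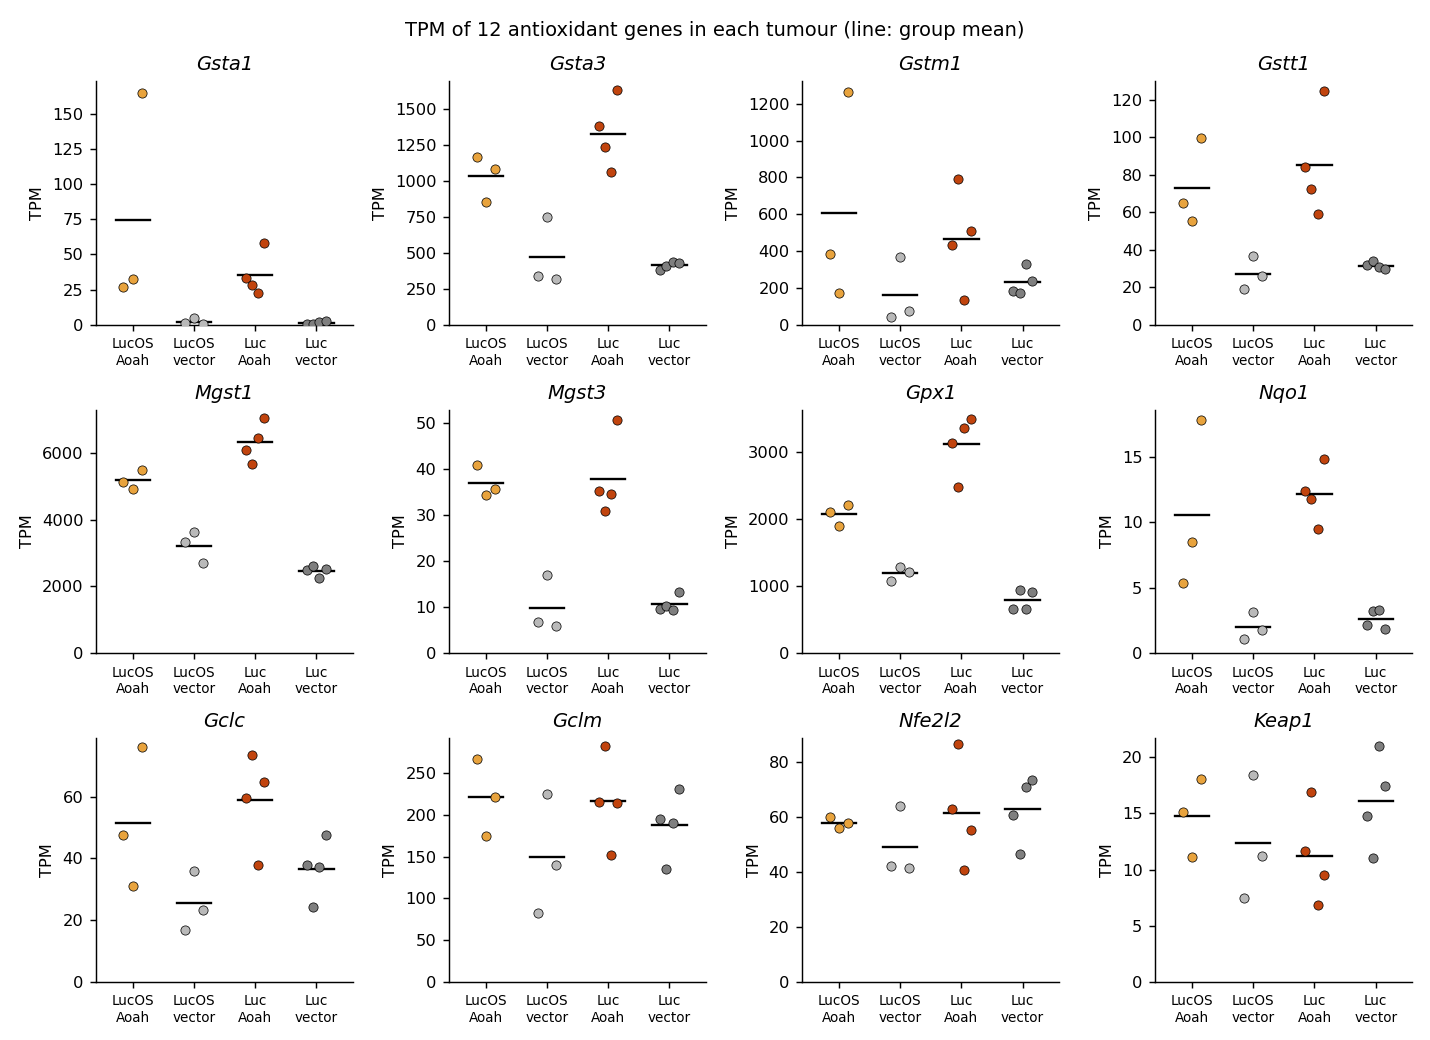
TPM of 12 genes in each tumour (points) with the group mean (line), on a linear axis from 0; groups from left to right are LucOS Aoah, LucOS vector, Luc Aoah and Luc vector. Gsta1, Gsta3, Gstt1, Mgst1, Mgst3, Gpx1 and Nqo1 do not overlap between Aoah and vector in either model, while Gstm1, Gclc, Gclm, Nfe2l2 and Keap1 overlap in both.

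Mu class transferases, which lie in 1 cluster on mouse chromosome 3 (GENCODE M21, GRCm38, from Gstm5 at chr3:107895821-107898686 to Gstm4 at chr3:108040408-108044894), conjugate many electrophiles. None of 7 passed in LucOS, with 5 at an unadjusted p under 0.05, against 12.3% of all genes. In Luc 2 of 7 rose, or 28.6%, against 7.93% of all genes. Gstm4 stood at 10.1, 5.44 and 19.5 TPM in LucOS Aoah tumours, against 2.47, 6.63 and 3.21 TPM in LucOS vector tumours, and LucOS Aoah 2 lay among the vector tumours. Its LucOS change was 1.24 (SE 0.38, adjusted p = 0.16), and it passed without LucOS Aoah 2 (adjusted p = 0.0412) and under median scaling (adjusted p = 0.0476), within 0.0412 to 0.622. Among Luc tumours the values were 15.6, 17.9, 9.71 and 17.7 TPM with Aoah, against 4.85, 4.61, 5.91 and 5.09 TPM with vector, without overlap, and the change was 1.38 (SE 0.33, adjusted p = 0.0142). That call was lost without Luc Aoah 4 (adjusted p = 0.053) or without Luc vector 1 and 3 together (adjusted p = 0.115), within 0.000518 to 0.115 over the alternatives. Gstm6 stood at 24.4, 12.5 and 56.9 TPM in LucOS Aoah tumours, against 1.73, 15.8 and 3.99 TPM in LucOS vector tumours, again with LucOS Aoah 2 below LucOS vector 2, and a change of 2.15 (SE 0.59, adjusted p = 0.105). It passed in LucOS without LucOS Aoah 2 (adjusted p = 0.0416) or LucOS vector 2 (adjusted p = 0.007), within 0.007 to 0.511. In Luc it stood at 39.7, 43.1, 25.2 and 68.8 TPM with Aoah, against 5.09, 7.76, 7.55 and 7.11 TPM with vector, with every Aoah tumour far above every vector tumour. Gstm6 had a log2 change of 2.45 (SE 0.51, adjusted p = 0.00629) in Luc, a call lost without Luc vector 1 and 3 together (adjusted p = 0.0883, range 0.000601 to 0.0883).

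The abundant members Gstm1, Gstm2 and Gstm3 did not pass in either model and varied widely within groups, and some of them passed when a tumour was left out or under another setting. Gstm1 ranged from 174 to 1262 TPM in LucOS Aoah, 39.8 to 371 TPM in LucOS vector, 136 to 789 TPM in the Luc Aoah group, then 171 to 329 TPM in Luc vector tumours. Its changes were 2.05 (adjusted p = 0.364) in LucOS and 0.81 (adjusted p = 0.421) in Luc. Gstm2 had a log2 change of 2.21 (adjusted p = 0.231) in LucOS, with 47.2 to 192 TPM with Aoah, against 5.61 to 77.7 TPM with vector, and passed without LucOS vector 2 (adjusted p = 0.00588, range 0.00588 to 0.687). In Luc it had a log2 change of 1.92 (adjusted p = 0.0529), with 46.1 to 140.0 TPM with Aoah, against 20.7 to 39.3 TPM with vector and no overlap, and it passed under 8 of 23 alternatives (range 0.00636 to 0.225), among them the fit without LucOS Aoah 3 (adjusted p = 0.0423), LucOS vector 1 (adjusted p = 0.0311) or LucOS vector 2 (adjusted p = 0.00899). Gstm3 had a log2 change of 2.85 (adjusted p = 0.25) in LucOS and 1.84 (adjusted p = 0.13) in Luc, with 99.9 to 574 TPM in LucOS Aoah, 6.72 to 138 TPM in LucOS vector, 44.2 to 274 TPM in the Luc Aoah group, then 23.4 to 64.3 TPM in Luc vector tumours. Gstm3 passed in LucOS without LucOS vector 2 (adjusted p = 0.0305, range 0.0305 to 0.725), and in Luc in the fit on Luc tumours alone (adjusted p = 0.0386) and under median scaling (adjusted p = 0.0344), within 0.0344 to 0.357. Gstm5 was below vector in every Luc Aoah tumour, with 15.4 to 21.4 TPM with Aoah, against 25.1 to 28.9 TPM with vector and a log2 change of -0.51 (adjusted p = 0.074). It passed as lower without Luc Aoah 2 (adjusted p = 0.0498) or LucOS vector 1 (adjusted p = 0.0478), within 0.0478 to 0.456. In LucOS its change was 0.17 (adjusted p = 0.868), with 14.3 to 20.7 TPM with Aoah, against 11.4 to 19.7 TPM with vector. Gstm7 overlapped in both models, at 0.22 (adjusted p = 0.928) in LucOS and 0.05 (adjusted p = 0.939) in Luc, between 5.13 and 25.4 TPM over all tumours. Windows of 75 bases were shared with other genes by 21.6% for Gstm3, 14.8% for Gstm1, 5.34% for Gstm6 and 3.13% for Gstm2, and by 0% for Gstm4, Gstm5 and Gstm7.

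Among pi, theta, kappa, omega and zeta transferases, 1 of 7 rose in LucOS, or 14.3%, against 0.750% of all genes. In Luc 3 of 7 rose, or 42.9%, against 7.93% of all genes. Gstt1, a theta class enzyme that acts on small halogenated compounds, stood at 65.0, 55.3 and 99.4 TPM in LucOS Aoah tumours, against 18.9, 36.6 and 25.9 TPM in LucOS vector tumours. Its Luc values were 84.0, 72.5, 59.0 and 125 TPM with Aoah, against 31.9, 34.0, 30.8 and 29.8 TPM with vector. The groups did not overlap in either model, and the Luc vector tumours lay close together. Gstt1 had a log2 change of 1.40 (SE 0.29, adjusted p = 0.0354) in LucOS and 1.35 (SE 0.25, adjusted p = 0.00352) in Luc. The LucOS call was lost under 13 of 23 alternatives (range 0.00972 to 0.206), which include leaving out any 1 of Luc Aoah 1, Luc vector 1, 3 or 4, LucOS Aoah 1 or 3, or LucOS vector 1 or 3 (adjusted p = 0.0612, 0.057, 0.0602, 0.0558, 0.115, 0.171, 0.114 and 0.136 in that order). Its Luc call was lost without Luc vector 1 and 3 together (adjusted p = 0.0584, range 0.000594 to 0.0584).

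Gstt2, its relative on the same stretch of chromosome 10, stood at 65.5, 69.2 and 86.3 TPM in LucOS Aoah tumours, against 50.1, 31.3 and 33.7 TPM in LucOS vector tumours. Its change of 0.94 (SE 0.23, adjusted p = 0.0667) in LucOS did not pass, though the groups were apart, and it passed without LucOS vector 1 (adjusted p = 0.0443, range 0.0443 to 0.321). The Luc tumours had 77.6, 68.2, 90.2 and 102 TPM with Aoah, against 53.1, 38.0, 37.4 and 43.9 TPM with vector, and all Aoah tumours were higher. That change was 0.95 (SE 0.20, adjusted p = 0.00619), and it reached an adjusted p of 0.0502 without Luc vector 1 and 3 together (range 0.00344 to 0.0502). Gstz1, the maleylacetoacetate isomerase of tyrosine breakdown, stood at 324, 281 and 316 TPM in LucOS Aoah tumours, against 291, 323 and 303 TPM in LucOS vector tumours. The LucOS groups were interleaved, with a change of 0.01 (SE 0.19, adjusted p = 0.999). Values in Luc were 461, 377, 462 and 527 TPM with Aoah, against 253, 370.0, 247 and 256 TPM with vector, all Aoah tumours above all vector tumours by a narrow margin over Luc vector 2, with a change of 0.71 (SE 0.17, adjusted p = 0.0127). The call was lost without Luc Aoah 4 (adjusted p = 0.0551) or without Luc vector 1 and 3 together (adjusted p = 0.197), within 0.00462 to 0.197. The other members of this group did not pass in either model. Gstp1, the pi class enzyme, had a log2 change of 0.83 (adjusted p = 0.21) in LucOS and 0.34 (adjusted p = 0.286) in Luc, between 426 and 1411 TPM over all tumours; 57.7% of its 75-base windows also occur in Gstp2, and it passed in LucOS without LucOS vector 2 (adjusted p = 0.0329). Gstt3, another theta enzyme, had a log2 change of 1.17 (adjusted p = 0.392) in LucOS and 0.66 (adjusted p = 0.282) in Luc (3.07 to 29.7 TPM), and 25% of its windows occur in another gene. The mitochondrial and peroxisomal kappa enzyme Gstk1 had a log2 change of 0.94 (adjusted p = 0.359) in LucOS and 0.20 (adjusted p = 0.67) in Luc (15.3 to 69.4 TPM), and passed in LucOS without LucOS vector 2 (adjusted p = 0.0152). The omega enzyme Gsto1 had a log2 change of -0.18 (adjusted p = 0.869) in LucOS and -0.08 (adjusted p = 0.787) in Luc (123 to 232 TPM).

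The microsomal transferases, membrane proteins unrelated in sequence to the cytosolic ones, rose in 1 of 3 cases in LucOS and in 3 of 3 in Luc. The shares of all genes called higher were 0.750% in LucOS and 7.93% in Luc. Mgst1, an enzyme of the endoplasmic reticulum and outer mitochondrial membrane, was by far the most abundant transferase message and made up 47.9% to 69.3% of the summed TPM of the 21 genes over all tumours. It stood at 5135, 4904 and 5484 TPM in LucOS Aoah tumours, against 3329.7, 3617 and 2713 TPM in LucOS vector tumours. Although the groups were apart, the LucOS change of 0.69 (SE 0.18, adjusted p = 0.0906) did not pass; it passed without LucOS vector 2 (adjusted p = 0.0484) and on TPM rescaled without mitochondrial and small RNA genes (adjusted p = 0.0481), within 0.0481 to 0.595. Among Luc tumours the values were 6095, 5659, 6452 and 7052 TPM with Aoah, against 2492, 2613, 2259 and 2535 TPM with vector, and the lowest Aoah tumour was far above the highest vector tumour. This change was 1.35 (SE 0.16, adjusted p = 0.000136). Mgst3 stood at 40.9, 34.5 and 35.8 TPM in LucOS Aoah tumours, against 6.75, 16.9 and 5.82 TPM in LucOS vector tumours. In Luc it stood at 35.2, 31.0, 34.7 and 50.7 TPM with Aoah, against 9.59, 10.3, 9.39 and 13.2 TPM with vector. The groups were apart in both models, and LucOS vector 2 was the highest vector tumour. Mgst3 had a log2 change of 1.95 (SE 0.31, adjusted p = 0.0143) in LucOS and 1.73 (SE 0.27, adjusted p = 0.000966) in Luc. Its LucOS call was lost without LucOS Aoah 1, Aoah 3 or vector 3 (adjusted p = 0.0678, 0.0591 and 0.0638, range 0.000411 to 0.161). Mgst2, which can also make leukotriene C4, stood at 23.2, 22.1 and 15.4 TPM in LucOS Aoah tumours, against 14.8, 17.7 and 4.22 TPM in LucOS vector tumours. The LucOS groups overlapped, and the change was 0.86 (SE 0.42, adjusted p = 0.425). Its Luc values were 31.7, 47.1, 61.7 and 57.0 TPM with Aoah, against 15.5, 14.8, 8.85 and 18.9 TPM with vector, without overlap and with Luc Aoah 3 the highest. That change was 1.70 (SE 0.36, adjusted p = 0.00708), lost without Luc vector 1 and 3 together (adjusted p = 0.113, range 0.00124 to 0.113).

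Summed over the 21 genes, transferase TPM was 9420.0 ± 1770.3 in LucOS Aoah tumours and 5375 ± 1226 in LucOS vector tumours (SD, n = 3 each). It was 10641 ± 1118 in Luc Aoah tumours and 4747 ± 102 in Luc vector tumours (SD, n = 4 each). The sums of the Aoah tumours, 7858 to 11343 in LucOS and 9543 to 12201 in Luc, all lay above those of the vector tumours, 4539.7 to 6782 in LucOS and 4632 to 4878 in Luc. No test was made of these sums, since the genes were chosen as a set. Leaving Mgst1 out, the sums were 4246 ± 1479 TPM in LucOS Aoah and 2154 ± 892 TPM in LucOS vector, with LucOS vector 2 at 3164 TPM above the lowest Aoah tumour at 2954 TPM. In Luc they were 4327 ± 884 TPM with Aoah and 2272 ± 156 TPM with vector. Alpha class TPM was 1325 ± 234 in LucOS Aoah, 597 ± 250.2 in LucOS vector, 1599.5 ± 321 in Luc Aoah and 569.5 ± 18.4 in Luc vector tumours. Gsta3 averaged 1035 ± 163 TPM in LucOS Aoah, 471 ± 244 TPM in LucOS vector, 1330.3 ± 239.9 TPM in Luc Aoah and 416 ± 23.7 TPM in Luc vector tumours (SD), the most of any alpha class gene. Mu class TPM ran from 368 to 2139 in LucOS Aoah, 72.9 to 654 in LucOS vector, 289.9 to 1309 in Luc Aoah and 275 to 496 in Luc vector tumours.

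**Figure D3:**
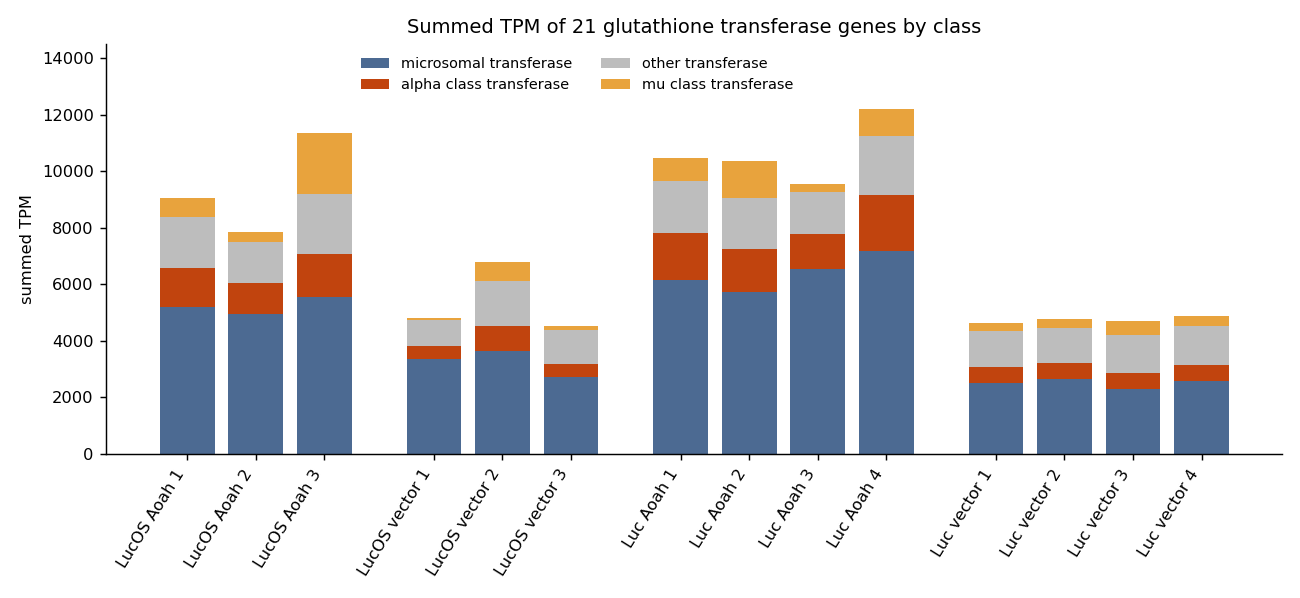
Summed TPM of the 21 glutathione transferase genes in each of 14 tumours, stacked by class (bars from 0). The 7 Aoah tumours reach 7858 to 12201 TPM and the 7 vector tumours 4539.7 to 6782 TPM, and the microsomal part, mostly Mgst1, is the largest in every bar.

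Of the genes that supply and recycle glutathione, none of 4 tested passed in either model (limma). At an unadjusted p under 0.05 there were 2 in LucOS, against 12.3% of all genes, and 1 in Luc, against 41.8%. Gclc, the catalytic subunit of the rate-limiting glutamate-cysteine ligase, stood at 47.5, 31.2 and 76.1 TPM in LucOS Aoah tumours, against 16.8, 36.0 and 23.3 TPM in LucOS vector tumours. The Luc tumours had 59.6, 73.6, 37.7 and 64.8 TPM with Aoah, against 37.9, 24.3, 37.1 and 47.4 TPM with vector. The groups overlapped in both models through LucOS Aoah 2 and Luc Aoah 3, the lowest Aoah tumours. Gclc had a log2 change of 0.97 (SE 0.36, adjusted p = 0.258) in LucOS and 0.67 (SE 0.31, adjusted p = 0.116) in Luc, and it passed when tumours were scaled to the same median (adjusted p = 0.049 in LucOS, range 0.049 to 0.815, and 0.00321 in Luc, range 0.00321 to 0.312). Gclm, the modifier subunit whose promoter is shown with an element core, stood at 268, 175 and 222 TPM in LucOS Aoah tumours, against 82.2, 225 and 141 TPM in LucOS vector tumours. Values in Luc were 216, 283, 153 and 215 TPM with Aoah, against 195, 135, 191 and 232 TPM with vector. Neither model separated the groups, and the changes were 0.66 (SE 0.33, adjusted p = 0.441) in LucOS and 0.19 (SE 0.28, adjusted p = 0.613) in Luc. In Luc, Gclm passed under median scaling (adjusted p = 0.0453, range 0.0453 to 0.917). Gss, which adds glycine to complete the tripeptide, had a log2 change of 0.48 (adjusted p = 0.389) in LucOS and 0.06 (adjusted p = 0.82) in Luc (41.8 to 91.2 TPM), and Gsr, which reduces oxidised glutathione, had one of 0.47 (adjusted p = 0.614) in LucOS and -0.37 (adjusted p = 0.294) in Luc (37.3 to 103 TPM). Gss passed in Luc under median scaling (adjusted p = 0.0412). Slc7a11, the cystine transporter, was not tested: it stood at 0.330, 0.160 and 0.460 TPM in LucOS Aoah tumours, against 0.0700, 0.0900 and 0.270 TPM in LucOS vector tumours. Among Luc tumours the values were 0.260, 0.690, 0.160 and 0.420 TPM with Aoah, against 0.190, 0.220, 0.260 and 0.740 TPM with vector, so no tumour reached 1 TPM.

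Of 7 peroxide and redox enzymes, 1 rose in LucOS (14.3%, against 0.750% of all genes) and 3 in Luc (42.9%, against 7.93% of all genes). Gpx1, the selenoprotein that reduces hydrogen peroxide with glutathione, stood at 2106, 1891 and 2215 TPM in LucOS Aoah tumours, against 1081, 1292 and 1203 TPM in LucOS vector tumours. In Luc it stood at 3126, 2483, 3359.7 and 3490.0 TPM with Aoah, against 661, 949.6, 661 and 913 TPM with vector. Both models separated the groups, with a wider gap in Luc. The changes were 0.80 (SE 0.21, adjusted p = 0.0906) in LucOS, which did not pass, and 1.98 (SE 0.18, adjusted p = 2.47e-05) in Luc. Gpx4, which reduces lipid hydroperoxides in membranes, stood at 788, 827 and 628 TPM in LucOS Aoah tumours, against 628, 449 and 437 TPM in LucOS vector tumours. Its Luc values were 948, 745, 1084 and 968 TPM with Aoah, against 421, 511, 344 and 421 TPM with vector. Here LucOS Aoah 3 and LucOS vector 1 met, and the Luc groups were apart. Gpx4 had a log2 change of 0.58 (SE 0.22, adjusted p = 0.271) in LucOS and 1.14 (SE 0.19, adjusted p = 0.00143) in Luc. A processed copy, Gpx4-ps2, shares 55.3% of its 75-base windows, so the split of reads is uncertain. Nqo1, the quinone reductase, stood at 5.34, 8.49 and 17.8 TPM in LucOS Aoah tumours, against 1.12, 3.18 and 1.78 TPM in LucOS vector tumours. The Luc tumours had 12.4, 11.8, 9.51 and 14.8 TPM with Aoah, against 2.12, 3.25, 3.33 and 1.83 TPM with vector. Every Aoah tumour of either model was above every vector tumour of either model. Nqo1 had a log2 change of 1.84 (SE 0.36, adjusted p = 0.032) in LucOS and 1.86 (SE 0.31, adjusted p = 0.0017) in Luc. Its LucOS call was lost without Luc Aoah 1, LucOS Aoah 3, LucOS vector 1 or LucOS vector 3 (adjusted p = 0.0526, 0.122, 0.0972 and 0.116), within 0.00929 to 0.21 over the alternatives.

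The other redox enzymes did not pass. Txnrd1, cytosolic thioredoxin reductase, stood at 57.4, 40.1 and 51.5 TPM in LucOS Aoah tumours, against 34.3, 77.6 and 51.6 TPM in LucOS vector tumours. Values in Luc were 58.2, 94.7, 38.4 and 52.1 TPM with Aoah, against 74.7, 50.6, 67.5 and 93.3 TPM with vector. The values were interleaved in both models, with changes of -0.07 (SE 0.34, adjusted p = 0.973) in LucOS and -0.27 (SE 0.29, adjusted p = 0.485) in Luc. Srxn1, sulfiredoxin, which restores overoxidised peroxiredoxins, stood at 6.96, 3.68 and 25.5 TPM in LucOS Aoah tumours, against 1.61, 10.2 and 2.32 TPM in LucOS vector tumours. Among Luc tumours the values were 10.5, 14.0, 6.43 and 9.79 TPM with Aoah, against 3.38, 4.35, 5.76 and 4.84 TPM with vector, and these groups were narrowly apart while those of LucOS overlapped. Srxn1 had a log2 change of 1.12 (SE 0.57, adjusted p = 0.466) in LucOS and 0.98 (SE 0.50, adjusted p = 0.148) in Luc, where it passed in the fit on Luc tumours alone (adjusted p = 0.0291) and under median scaling (adjusted p = 0.0319), within 0.0291 to 0.38. Hmox1, heme oxygenase 1, stood at 16.0, 13.8 and 35.05 TPM in LucOS Aoah tumours, against 14.9, 21.7 and 18.8 TPM in LucOS vector tumours. In Luc it stood at 27.9, 35.5, 13.6 and 17.2 TPM with Aoah, against 23.7, 16.6, 31.8 and 41.3 TPM with vector. Hmox1 overlapped in both models, with changes of 0.11 (SE 0.40, adjusted p = 0.959) in LucOS and -0.28 (SE 0.35, adjusted p = 0.558) in Luc. Ephx1, the microsomal epoxide hydrolase, had a log2 change of 1.66 (adjusted p = 0.204) in LucOS and 0.78 (adjusted p = 0.224) in Luc (20.0 to 196 TPM); it passed in LucOS without LucOS vector 2 (adjusted p = 0.0223) and in Luc under median scaling (adjusted p = 0.038).

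The messages of the pathway's own regulators did not pass. Nfe2l2, which encodes Nrf2, stood at 60.0, 56.1 and 57.7 TPM in LucOS Aoah tumours, against 42.1, 63.9 and 41.5 TPM in LucOS vector tumours. Its Luc values were 62.9, 86.4, 40.7 and 55.1 TPM with Aoah, against 60.8, 46.5, 70.9 and 73.4 TPM with vector. The changes were 0.26 (SE 0.26, adjusted p = 0.79) in LucOS and -0.07 (SE 0.23, adjusted p = 0.843) in Luc, and the groups overlapped. Keap1 stood at 15.1, 11.2 and 18.1 TPM in LucOS Aoah tumours, against 7.48, 18.5 and 11.2 TPM in LucOS vector tumours. The Luc tumours had 11.6, 16.9, 6.83 and 9.54 TPM with Aoah, against 14.7, 11.1, 21.0 and 17.5 TPM with vector. Here too the groups overlapped, and the changes were 0.29 (SE 0.35, adjusted p = 0.829) in LucOS and -0.51 (SE 0.30, adjusted p = 0.206) in Luc. Nrf2 is regulated largely at the protein level, which was not measured. Of the 8 genes with an element core in the window, 2 (Gsta3 and Mgst1) rose in Luc. Of the 22 with a window and no core 11 rose, and these 22 include Slc7a11, which was not tested. Of all genes 7.93% were called higher in Luc. A match is a description of letters and not a site. Cores outside the windows were not searched for, so these counts do not sort Nrf2 targets from other genes.

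Genes of the same pathways outside the 35, on lists written with earlier results of these data known, were counted in the same way. Of 27 Nrf2 partners, regulators and other targets, 1 rose and none fell in LucOS and 5 rose and 5 fell in Luc, with medians of 0.12 in LucOS and -0.04 in Luc. In Luc that is 18.5% in each direction, against 7.93% of all genes higher and 14.3% lower, and the median of all genes was -0.24. The LucOS share higher was 3.70%, against 0.750% of all genes. Blvrb, biliverdin reductase B, had a log2 change of 0.85 (adjusted p = 0.0333) in LucOS and 0.87 (adjusted p = 0.00189) in Luc. The carbonyl reductase Cbr1 had a log2 change of 0.83 (adjusted p = 0.104) in LucOS and 0.98 (adjusted p = 0.00454) in Luc, and Cbr3 had one of 1.47 (adjusted p = 0.189) in LucOS. Fth1, the ferritin heavy chain that stores iron, fell by 1.24 on the log2 scale in Luc (adjusted p = 0.000668). Of 21 genes of glutathione turnover and other peroxide enzymes, 1 rose in LucOS, and 3 rose and 1 fell in Luc, with medians of 0.29 in LucOS and 0.12 in Luc. The share higher was 4.76% in LucOS and 14.3% in Luc, and the share lower in Luc was 4.76%, below that of all genes. Gpx7, a peroxidase of the endoplasmic reticulum, rose by 1.26 (adjusted p = 0.0491) in LucOS and 1.29 (adjusted p = 0.00357) in Luc. The peroxiredoxin Prdx5 had a log2 change of 0.83 (adjusted p = 0.131) in LucOS and 0.96 (adjusted p = 0.00856) in Luc, and Glrx, glutaredoxin, had one of 1.12 (adjusted p = 0.156) in LucOS. Ggt1, which breaks down glutathione outside the cell, fell by 1.12 in Luc (adjusted p = 0.0413).

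Drug-sensing receptors of the liver also control transferase genes, and 9 genes were listed for these receptors, their partners and their usual targets. None passed in LucOS (limma), where 3 had an unadjusted p under 0.05, and 2 rose and 2 fell in Luc; the medians were 0.54 in LucOS and -0.20 in Luc. In Luc that is 22.2% in each direction, against 7.93% of all genes higher and 14.3% lower. In LucOS 12.3% of all genes had an unadjusted p under 0.05. Cyp3a11, the classical target of the pregnane X receptor, had a log2 change of 1.87 (adjusted p = 0.0847) in LucOS and 2.47 (adjusted p = 0.00152) in Luc. In LucOS, Cyp1a2 had a log2 change of 2.95 (adjusted p = 0.198) and Cyp2b10 had one of 1.13 (adjusted p = 0.392). In Luc, Rxra, a partner of the pregnane X receptor, had a log2 change of -1.88 (adjusted p = 0.0151). Por, the reductase that feeds cytochromes P450, had one of -1.40 (adjusted p = 0.0187) in Luc. The genes named in Luc are those with the smallest p, and 1 of the 2 that rose is not among them. The 9 changes in Luc ran from -1.88 to 3.27. Of 7 further glutathione transferase genes listed, 6 were in the table and 4 were tested. None of the 4 passed in either model. In each model 1 had an unadjusted p under 0.05, against 12.3% of all genes in LucOS and 41.8% in Luc. Their smallest p-values were those of Hpgds at 0.85 (adjusted p = 0.281), Gstp2 at 1.01 (adjusted p = 0.6) and Gstcd at -0.37 (adjusted p = 0.694) in LucOS. In Luc they were those of Gstp3 at -0.61 (adjusted p = 0.0515), Hpgds at 0.47 (adjusted p = 0.211) and Gstcd at -0.32 (adjusted p = 0.342).

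Whether the Aoah effect differed between models was tested as the LucOS change minus the Luc change. None of the 34 genes passed in limma, and of all genes 0.00743% passed. At an unadjusted p under 0.05 there were 4 of the 34 (Gpx1, Mgst1, Gstz1 and Gstm5), or 11.8%, near the 10.2% of all genes. Gpx1 had the smallest p, with changes of 0.80 in LucOS and 1.98 in Luc, a difference of -1.18 (SE 0.27, adjusted p = 0.443). The calls in Luc that were not made in LucOS are therefore not shown to differ between models. The 2 comparisons of Aoah with vector share no tumours.

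The antigen contrasts, which ask what the OVA, SIN and SIY antigens changed at a given plasmid, gave no call among the 34 genes in limma. Between LucOS vector and Luc vector tumours 0% of all genes passed. At an unadjusted p under 0.05 there were 5 of the 34, or 14.7%, near the 14.2% of all genes, and the median of the 34 was -0.37, against -0.25 for all genes. Every LucOS vector tumour lay above every Luc vector tumour for 2 of the 34 (Mgst1 and Gpx1), against 2.12% of all genes, and below for 1 (Gstm5), against 7.63%. Gpx1 stood at 1081, 1292 and 1203 TPM in LucOS vector and 661, 949.6, 661 and 913 TPM in Luc vector tumours, a change of 0.60 (SE 0.19, adjusted p = 0.344). Between LucOS Aoah and Luc Aoah tumours 0.0817% of all genes passed. At an unadjusted p under 0.05 there were 3 of the 34 (Gstz1, Mgst2 and Gpx1), or 8.82%, near the 7.01% of all genes, and the median of the 34 was -0.16, against -0.01 for all genes. No gene of the 34 had every LucOS Aoah tumour above every Luc Aoah tumour, against 2.20% of all genes, and 4 had every one below, against 5.28%. Mgst2 stood at 23.2, 22.1 and 15.4 TPM in LucOS Aoah and 31.7, 47.1, 61.7 and 57.0 TPM in Luc Aoah tumours, a change of -1.22 (SE 0.39, adjusted p = 0.471).

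Single tumours often stood at one end of their group over many of the genes. LucOS Aoah 3 held the highest value of its group for 23 of the 35 genes and LucOS Aoah 2 the lowest for 28. Among LucOS vector tumours, vector 2 was the highest for 30 and vector 1 the lowest for 27. Luc Aoah 3, the tumour with the high small RNA share, was the lowest of its group for 27, and Luc Aoah 2 was the highest for 18. Among Luc vector tumours no tumour stood at one end so often: vector 4 was the highest for 16 and vector 2 the lowest for 13. The order was not counted over all genes, so it is not shown to be particular to these. The median Aoah change of all genes in LucOS, -0.02, became -0.13 without LucOS vector 1 and 0.08 without LucOS vector 2. It became 0.07 without LucOS Aoah 2 and -0.04 without LucOS Aoah 3. In Luc that median, -0.24, became -0.16 without Luc Aoah 3 and -0.34 without Luc Aoah 2. The median SD of log2(TPM + 1) over the 34 genes was 0.33 in LucOS Aoah, 0.59 in LucOS vector, 0.41 in Luc Aoah and 0.30 in Luc vector tumours, where the medians over all genes tested were 0.33, 0.35, 0.35 and 0.30. In LucOS vector tumours the spread was widest for Gstm3 (SD 2.11), Gstm2 (SD 1.85) and Gstm1 (SD 1.64), and narrowest for Gstz1 (SD 0.07) and Gpx1 (SD 0.13). The part of the mitochondrial and small RNA shares of these tumours in the order was not tested.

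**Figure D4:**
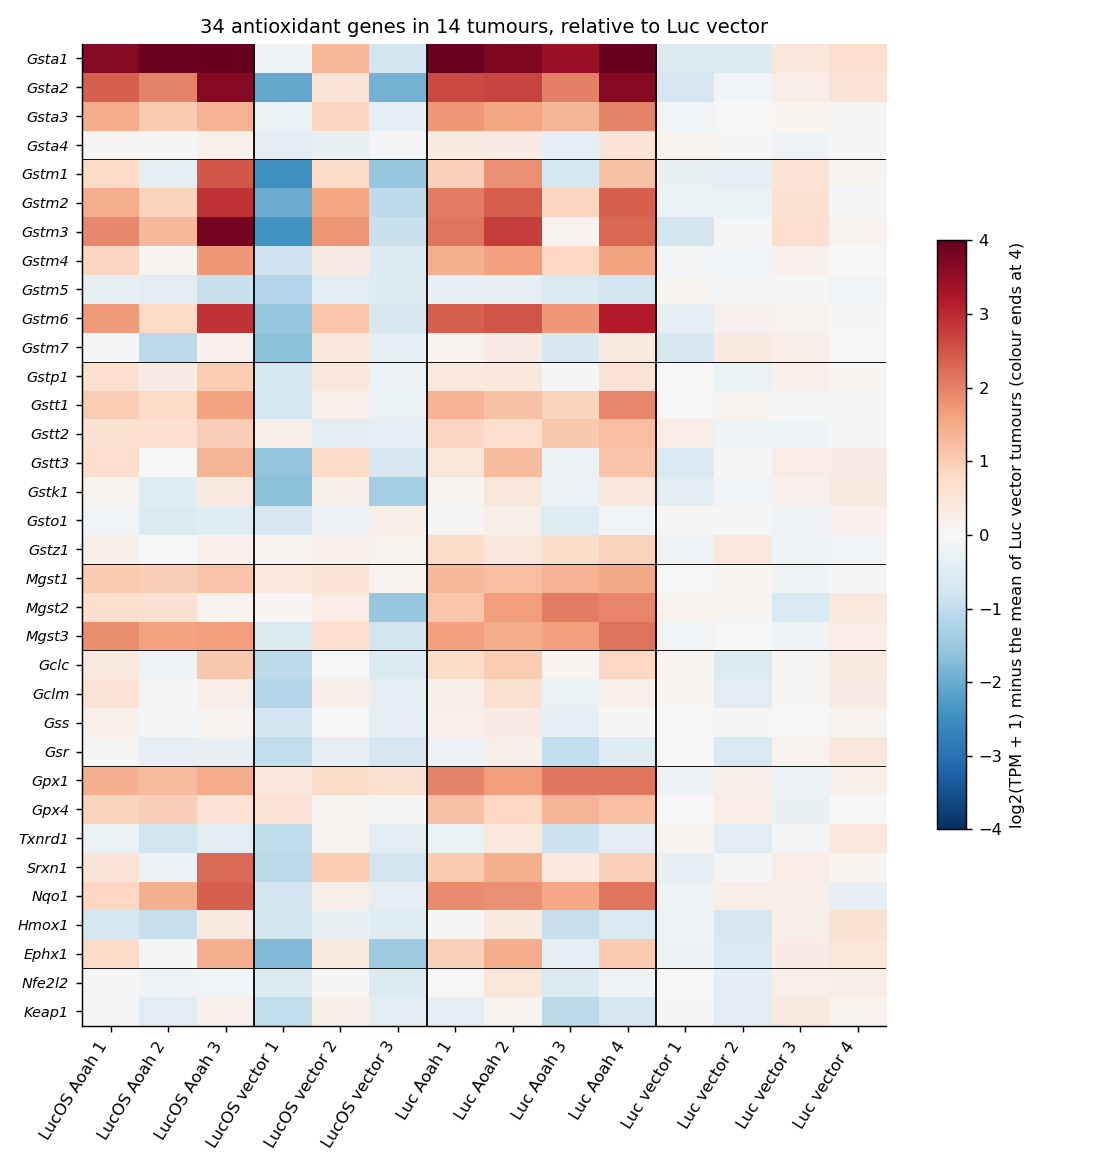
Log2(TPM + 1) of 34 genes (rows, by class) in 14 tumours (columns, by group), as the difference from the mean of the Luc vector tumours; red is higher, blue is lower and the colour ends at 4. Gsta1 and Gsta2 are red in all 7 Aoah tumours, and the columns of LucOS Aoah 3 and LucOS vector 2 are redder than others of their group.

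More calls stood in the authors' deposited tables. The authors' deposited table for LucOS has 9 of the 35 genes higher with Aoah at an adjusted p under 0.05, against 1.99% of 16406 genes with an adjusted p. The authors' deposited table for Luc has 24 higher, against 15.6% of 19102 genes. None was lower in either of the authors' deposited tables, and all calls made here were among theirs. The genes called in the authors' deposited tables and not here were Gsta3, Gstm4, Gstm6 and Gpx1 in LucOS. In Luc they were Gstm1, Gstm2, Gstm3, Gstp1, Gstt3, Gclc, Gclm, Gss, Srxn1 and Ephx1. For Gclc the authors' deposited tables give log2 fold changes of 1.00 (SE 0.34, adjusted p = 0.0798) in LucOS and 0.96 (SE 0.17, adjusted p = 1.03e-06) in Luc. For Gclm the authors' deposited tables give 0.59 (adjusted p = 0.369) in LucOS and 0.48 (adjusted p = 0.00226) in Luc. The regulators were not called there either: the authors' deposited tables give Nfe2l2 at 0.23 (adjusted p = 0.769) in LucOS and 0.22 (adjusted p = 0.222) in Luc, and Keap1 at 0.26 (adjusted p = 0.766) in LucOS and -0.28 (adjusted p = 0.289) in Luc. Those tables do not state which group is the numerator, which was read from the sign of Aoah.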

How the data were processed

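Poly(A) RNA of 14 tumours was extracted with TRIzol and sequenced on an Illumina platform, per the labels' protocols. RSEM, DESeq2 and the mm39 build appear in the submitters' processing notes; aligner and versions are not given in the sources used here. Per gene symbol, the authors deposited log2(TPM + 1), from which the TPM printed here were computed back. TPM keeps no depth, so no counting error can be given. Whether the library kept strand is not stated, so overlapping and antisense genes may share reads. The authors' deposited comparison tables give a log2 fold change, its SE and an adjusted p-value for each gene in each model.

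Genes reaching 1 TPM in at least 3 tumours (13466) were fitted in limma 3.58.1 (R 4.3.3) with trend and robust settings on log2(TPM + 1), with 1 mean for each of 4 groups. The 5 contrasts were adjusted over all genes kept by the Benjamini-Hochberg method, with a threshold of 0.05, and "called" means past it. Changes on this scale understate the fold of low genes. Members and gene lists were chosen with earlier results of these data known. By the rule for named genes, every member called in an Aoah contrast and Nfe2l2, Keap1, Nqo1, Gclc, Gclm, Hmox1, Txnrd1, Srxn1 and Slc7a11 are given in full, the other members by range, and each other list by its 3 genes with the smallest p. The fit was tested on simulated data. Alternatives were another pseudocount (0.1 TPM), no filter, leaving out tumours, a replicate block, limma without trend and robust settings, a fit on the groups compared only, median scaling of tumours, and TPM rescaled without mitochondrial and small RNA genes. Leaving out Luc Aoah 3 and LucOS Aoah 3 together was added after seeing the data. The T cell receptor table was not used here.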

Additional observations from a re-analysis of the deposited data

Results flagged for a closer look

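Of 68 sets of 4 tumours examined for a value far from the rest, 1 stood out, for Gstz1. The Luc Aoah tumours held 461, 377, 462 and 527 TPM of it, and Luc vector 2 held 370.0 TPM, against 253, 247 and 256 TPM in the other Luc vector tumours. Chance flags about 1 in 20 such groups, so 1 flag among 68 is no more than chance would give.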

How the results depend on the processing

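No called change among the 34 genes changed sign under any of the 23 alternatives. Of the 14 calls in Luc, 7 held under all 23, and of the 5 in LucOS, 0 did. The 5 calls in LucOS became 8 under median scaling, 3 without Luc vector 1 and 3 together, 1 without both Aoah 3 tumours, and 0 with no filter or in the fit on the 2 groups compared (1 to 13 leaving out 1 tumour). The 14 calls in Luc became 22 under median scaling and 7 without Luc vector 1 and 3 together (12 to 16 leaving out 1 tumour). No call was made among the 34 in the difference or the antigen contrasts when any 1 tumour was left out (0 to 0).

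Over all genes the 130 calls in LucOS became 15 with no filter, 6 in the fit on 2 groups, 218 under median scaling, 22 without Luc vector 1 and 3, and 15 without both Aoah 3 tumours (13 to 353). The 2988 calls in Luc became 1288 with no filter, 355 without Luc vector 1 and 3, and 1374 without both Aoah 3 tumours (855 to 5251). Of the Luc calls 35.7% were higher, and 52.1% of 4120 under median scaling, 55.4% with no filter, 48.8% in the fit on 2 groups, 74.6% without Luc vector 1 and 3, and 64.0% without both Aoah 3 tumours. The 1 gene called in the difference became 2 with no filter and 0 with a pseudocount of 0.1, under either rescaling and under both joint omissions (0 to 2). LucOS vector against Luc vector went to 4 calls with no filter, 2 in the fit on 2 groups and 2 without both Aoah 3 tumours (0 to 3). The 11 calls of LucOS Aoah against Luc Aoah became 4 with a pseudocount of 0.1, 6 with no filter, 2 in the fit on 2 groups, 3 on rescaled TPM, 2 without Luc vector 1 and 3, and 5 without both Aoah 3 tumours (1 to 14). The cause of these shifts was not tested.

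With the replicate number as a block there were 3 calls among the 34 in LucOS and 14 in Luc, and over all genes 34 in LucOS, 1168 in Luc, 0 in the difference and 0 in LucOS Aoah against Luc Aoah. Deviations of same-numbered tumours correlated at -0.5542 to 0.0956 in LucOS and -0.5500 to 0.0013 in Luc. Those of differently numbered tumours correlated at -0.4478 to 0.4883 in LucOS and -0.2050 to 0.4667 in Luc. Deviations within a group cancel out, and the tumours are few, so these values cannot tell whether same-numbered tumours were matched.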
